A study of Mus musculus with 12 samples.

Results

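The liver transcriptome of wild-type (WT) mice was compared between a mildly low selenium diet (0.08 ppm of selenium, WT LS) and an adequate diet (0.25 ppm, WT MS). All animals were males of the C57BL6/N strain with an intact Scly gene, and they had eaten these diets, in which selenium was given as sodium selenite, for at least 8 weeks from weaning. The comparison used 6 of the 12 RNA-Seq libraries of the series, S1 to S3 for WT LS and S4 to S6 for WT MS, chosen by the group named on each library. The other 6 libraries came from mice that lack Scly (Scly KO), the gene for selenocysteine lyase, on the same diets, and served for the estimate of the spread and for the comparison of genotypes at the end. The Scly KO mice were kept as a homozygous colony of their own, so genotype and colony cannot be told apart. The labels do not say whether each library is a separate animal, and all p-values therefore measure only the spread between these libraries.

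Selenium reaches the body as selenite, selenomethionine or selenocysteine and is turned into selenide, which is built into selenocysteine on its own transfer RNA. Selenocysteine is inserted into selenoproteins at UGA codons that would otherwise stop translation. The liver takes up most dietary selenium, makes the plasma carrier selenoprotein P and holds large amounts of the peroxidase GPX1. When selenium runs short, UGA codons in some selenoprotein messages are read as stops and these messages can be degraded, with Gpx1, Selenoh and Selenow regarded as the sensitive ones in rodent liver and Gpx4 and Txnrd1 as resistant.

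Estimated counts per WT library ranged from 4797067 (S1) to 9291902 (S6). S1 stood apart from the other WT libraries. Its Spearman correlation with them was 0.942 to 0.957, whereas the other 5 correlated at 0.970 to 0.988 with each other, and its sample quality weight was the lowest of the 6 (0.342). S4 had the next lowest weight (0.744). Albumin (Alb), the main hepatocyte product, was at 42859 CPM (counts scaled to 1000000 per library) in S1 and at 65811 to 75633 CPM in the other WT libraries. The 13 hepatocyte markers were all detected, 4 of 10 skeletal muscle markers and 12 of 14 pancreatic acinar markers had no count in any WT library, and the markers of other liver cells are given with the cell types further on.

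Of 24795 genes, 12009 were expressed highly enough to be tested, and the diet difference was small for most of them. The median log2 fold change (WT LS minus WT MS) was 0.01, the median size of the change was 0.20, and 5789 genes were lower and 6220 higher on low selenium. In the edgeR quasi-likelihood test with Benjamini-Hochberg adjustment, 0 genes (0.0%) passed the threshold of 0.05, and the smallest adjusted p was 0.451, for Tsku. Before adjustment, 137 genes were higher (1.14%) and 138 were lower (1.15%) with p under 0.05. The values of the 3 low and the 3 adequate libraries did not overlap for 626 genes that were higher (5.21%) and for 778 that were lower (6.48%). For 1 gene taken alone, the smallest p that an exact permutation over groups of 3 could reach is 0.1.

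Other tools called a few genes. DESeq2 called 2 of 11952 genes (0.0167%), Tsku and Selenbp2, both higher on low selenium. Limma-voom with sample quality weights called 18 of 12009 (0.15%), namely Tsku, Angptl4, Ahr, Noct and Ip6k2 as higher and Wdfy1, Htd2, Mmd2, Slc25a30, Id2, Cyp2g1, Acss3, Pde4b, Slc25a25, D630039A03Rik, Aqp4, R3hcc1 and Acnat2 as lower. Only Tsku was called by both. With the 6 WT libraries alone, edgeR called 0 genes (337 higher and 289 lower with p under 0.05 before adjustment), DESeq2 26 and limma-voom 23, and 14 genes were shared between the latter tools. They were Tsku, Angptl4, Ahr, Pfkfb3, Lpin1 and Il6ra, all higher, and Acss3, Mmd2, Pde4b, Slc25a25, Sult1c2, Acnat2, Dsg1c and Wfdc2, all lower. Without S1, edgeR called 1 gene, Wdfy1, with an adjusted p of 0.0458. In what follows no verb of change is used for a gene that edgeR did not call, and calls by another tool are named as such.

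**Figure D1:**
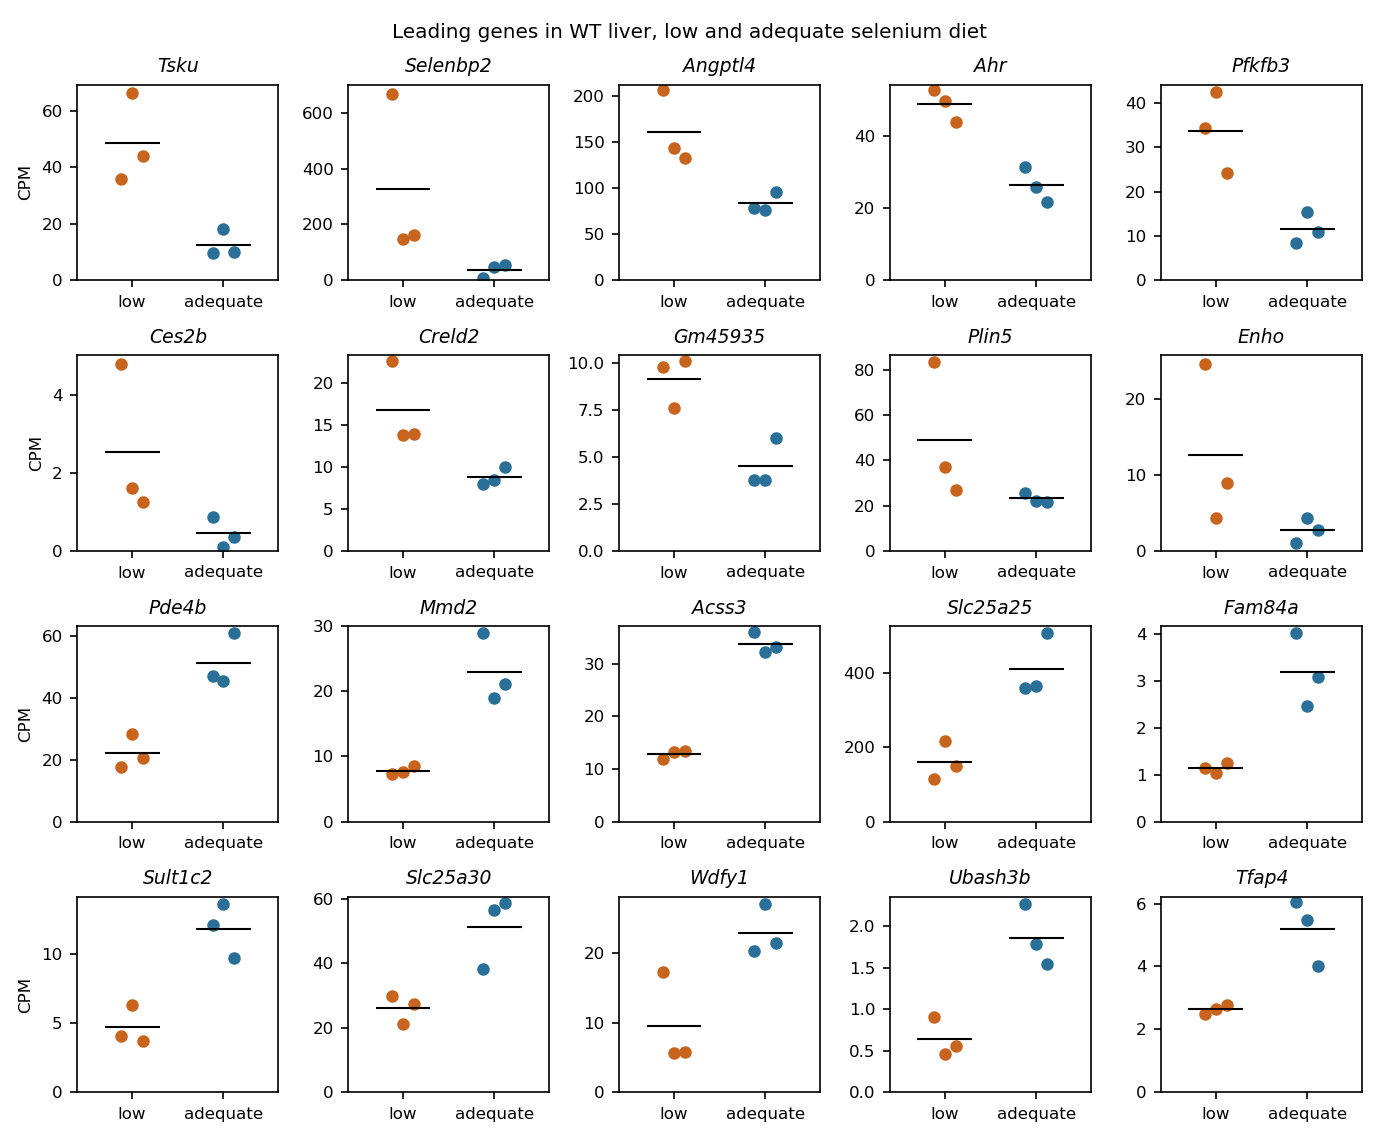
CPM of the 20 genes with the smallest p among those whose groups do not overlap, 10 higher (upper 2 rows) and 10 lower (lower 2 rows) on low selenium. Points are single WT libraries and lines are means of 3, on axes that start at 0. Tsku lies between 35.7 and 66.4 CPM on low and between 9.44 and 18.1 on adequate selenium, and Acss3 shows the narrowest spread within the groups.

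Tsku had the smallest p of all genes. It encodes tsukushi, a small leucine-rich repeat protein that the liver secretes, and lies on mouse chromosome 7 (98350668 to 98361328, minus strand, mm10). Its level was 35.7, 66.4 and 43.8 CPM in WT LS and 9.44, 18.1 and 9.83 CPM in WT MS, so the lowest low-selenium library was still well above the highest adequate one. The means were 48.6 ± 15.9 and 12.5 ± 4.89 CPM (SD, n = 3), and the log2 fold change was 1.97 ± 0.32 (SE), or 3.91-fold. Over 19 alternative settings the log2 fold change stayed between 1.69 and 2.35, and the adjusted p ranged from 3.52e-06 to 1.0, passing the threshold in 4 of them, DESeq2 (6.33e-05) and limma-voom (0.00596) included. The 150 bases before the Tsku start site (GRCm38.p6, chr7:98361329-98361478, minus strand) are shown because this gene leads the comparison. Capitals mark GGGCGG, the GC box to which Sp1 binds.

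Tsku: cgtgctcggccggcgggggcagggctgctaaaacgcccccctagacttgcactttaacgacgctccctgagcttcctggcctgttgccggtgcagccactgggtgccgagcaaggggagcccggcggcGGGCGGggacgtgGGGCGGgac

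The GC box was searched on both strands in the 250 bases before the start, in RefSeq promoters of GRCm38.p6. Such a match occurred in 35.4% of 27025 genes and the Tsku boxes lie 22 and 9 bases before the start, so it is a common feature and is given as a description only.

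Selenbp2 showed the largest difference among the leading genes. It encodes a selenium-binding protein that carries no selenocysteine. Its level was 668, 149 and 162 CPM in WT LS and 8.55, 46.7 and 54.8 CPM in WT MS, without overlap. The log2 fold change was 3.15 ± 0.72 (SE) and was 2.08 without S1, which held the high value, and 2.68 without S4, which held the low value. DESeq2 called it (adjusted p = 0.00706) but limma-voom did not (adjusted p = 0.0896), and over its 19 alternatives the adjusted p ranged from 0.00706 to 1.0. Its near copy Selenbp1 was at 234, 189 and 205 CPM in WT LS and 272, 205 and 196 CPM in WT MS, which overlap. Because reads that fit several genes were divided between them by estimation, the split between these similar genes carries an extra uncertainty.

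The other 8 genes that led on the higher side are described one by one. Angptl4, an inhibitor of lipoprotein lipase induced by fasting, was at 206, 144 and 133 CPM on low and 78.4, 76.2 and 95.7 CPM on adequate selenium (log2 fold change 0.95 ± 0.24 SE). Plin5, a coat protein of lipid droplets, was at 83.3, 37.2 and 26.7 CPM against 25.8, 22.1 and 21.7 CPM, and its log2 fold change of 1.07 became 0.46 without S1. Both genes had groups that do not overlap, but for Plin5 the lowest low-selenium library and the highest adequate one nearly meet. Pfkfb3, which makes the activator of glycolysis fructose 2,6-bisphosphate, was at 34.4, 42.4 and 24.1 CPM against 8.43, 15.4 and 10.9 CPM (1.54 ± 0.43 SE on the log2 scale). Ahr, the dioxin receptor, was at 52.8, 49.8 and 44.0 CPM against 31.5, 25.8 and 21.7 CPM (0.89 ± 0.25 SE). The Ahr values had a narrow spread in each group and did not depend on S1 (0.84 without it). Cyp1a1, the classic target of this receptor, was low but also did not overlap, with 3.64, 2.76 and 2.91 CPM against 1.01, 1.23 and 1.18 CPM (log2 fold change 1.42 ± 0.51 SE). Another known target, Tiparp, was at 13.4, 11.7 and 13 CPM against 12.2, 19.5 and 18.6 CPM, which overlap. Cyp1a1 and Tiparp were chosen after their values were seen. Of the remaining leading genes, Creld2 is an endoplasmic reticulum protein, Ces2b a carboxylesterase and Enho the gene of adropin. Creld2 was at 13.8 to 22.5 CPM on low and 7.93 to 9.95 CPM on adequate selenium, Gm45935 at 7.59 to 10.1 against 3.77 to 6.04 CPM, Ces2b at 1.25 to 4.78 against 0.112 to 0.881 CPM, and Enho at 4.37 to 24.6 against 1.01 to 4.36 CPM. For Creld2, Ces2b and Enho the highest of these values was that of S1.

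The genes that led on the lower side include a pair of mitochondrial carriers and a cAMP phosphodiesterase. Acss3, which activates propionate in mitochondria, had the tightest groups, with 11.8, 13.2 and 13.4 CPM in WT LS and 36.0, 32.2 and 33.3 CPM in WT MS (log2 fold change -1.39 ± 0.34 SE). Mmd2, a membrane protein of the progestin and adipoQ receptor family, was at 7.29, 7.59 and 8.59 CPM against 28.9, 19.0 and 21.1 CPM (-1.55 ± 0.37 SE). In both genes every low-selenium library was below every adequate library, and the result did not rest on S1 (-1.34 for Acss3 and -1.51 for Mmd2 without it). Slc25a25, a calcium-regulated ATP-Mg and phosphate carrier of mitochondria, was at 114, 217 and 150 CPM against 360, 366 and 506 CPM (-1.36 ± 0.34 SE). Slc25a30, a mitochondrial carrier related to the uncoupling proteins, was at 29.8, 21.3 and 27.3 CPM against 38.1, 56.6 and 58.7 CPM (-0.97 ± 0.27 SE). Both carriers passed the limma-voom threshold. Pde4b, which degrades cAMP, was at 17.8, 28.4 and 20.5 CPM against 47.2, 45.6 and 61.1 CPM (-1.20 ± 0.25 SE), the smallest p among lower genes. Sult1c2, a sulfotransferase, was at 3.74 to 6.33 CPM on low and 9.71 to 13.6 CPM on adequate selenium. The transcription factor gene Tfap4 was at 2.5 to 2.77 against 4.03 to 6.04 CPM, Fam84a at 1.04 to 1.25 against 2.46 to 4.03 CPM, and Ubash3b, which encodes a phosphatase, at 0.460 to 0.911 against 1.54 to 2.26 CPM. The last 2 of these rest on few counts.

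Wdfy1, which encodes an endosomal protein that binds phosphatidylinositol 3-phosphate, showed an uneven pattern. Its level was 17.3, 5.64 and 5.82 CPM in WT LS and 20.4, 27.0 and 21.4 CPM in WT MS. S2 and S3 were thus far below all the other libraries, whereas S1 lay close to the adequate group. In the 10 libraries other than S2 and S3, Scly KO included, Wdfy1 ranged from 17.3 to 40.2 CPM. The log2 fold change was -1.30 ± 0.36 (SE) with all libraries and -2.0 without S1, and limma-voom gave the smallest adjusted p of that tool here (0.0003, over a range of 0.0003 to 1.0 in 19 alternatives). Id2, an inhibitor of basic helix-loop-helix transcription factors, was likewise lowest in S2 and S3, at 99.3, 45.3 and 64.4 CPM in WT LS and 133, 139 and 109 CPM in WT MS. Htd2, Cyp2g1 and Ip6k2 were among the limma-voom calls as well. Htd2, for a step of mitochondrial fatty acid synthesis, was at 0.228, 0.115 and 0 CPM against 1.89, 1.34 and 1.18 CPM. Cyp2g1, an olfactory cytochrome P450, was at 2.05, 0.115 and 0 CPM against 1.38, 1.68 and 1.18 CPM, and its groups overlap because of S1. Ip6k2, an inositol hexakisphosphate kinase, was at 22.5, 25.1 and 28.4 CPM against 15.9, 15.5 and 17.4 CPM, without overlap.

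In the fits of all 12 libraries, edgeR, DESeq2 and limma-voom called no selenoprotein gene. This does not show that the selenoprotein messages differed little between the diets, because their SE were wide. Of 24 selenoprotein genes, 20 were tested, while Dio2, Dio3, Gpx2 and Selenov had at most 1 count in the 6 libraries together. Of the 20, 9 were higher and 11 lower on low selenium. An unadjusted p under 0.05 occurred in 0 of them, beside 1.14% of all genes higher and 1.15% lower. Without overlap 1 was higher and 2 were lower, beside 5.21% and 6.48% of all genes. The median log2 fold change was -0.09 beside 0.01 for all genes, or -0.03 without S2, -0.04 without S6 and -0.15 without S4. Gpx1 was at 1716, 1629 and 1611 CPM in WT LS and 1059.6, 1961 and 2090.3 CPM in WT MS (log2 fold change -0.04 ± 0.40 SE). The 3 low-selenium values of Gpx1 fell inside the wide range of the adequate group, which S4 extended downwards. Selenop, the plasma selenium carrier, was at 10611, 13254 and 11882 CPM against 10107, 15763 and 19033 CPM (-0.33 ± 0.49 SE), and again S4 was the lowest. Without S4 the log2 fold change was -0.30 for Gpx1 and -0.55 for Selenop.

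**Figure D2:**
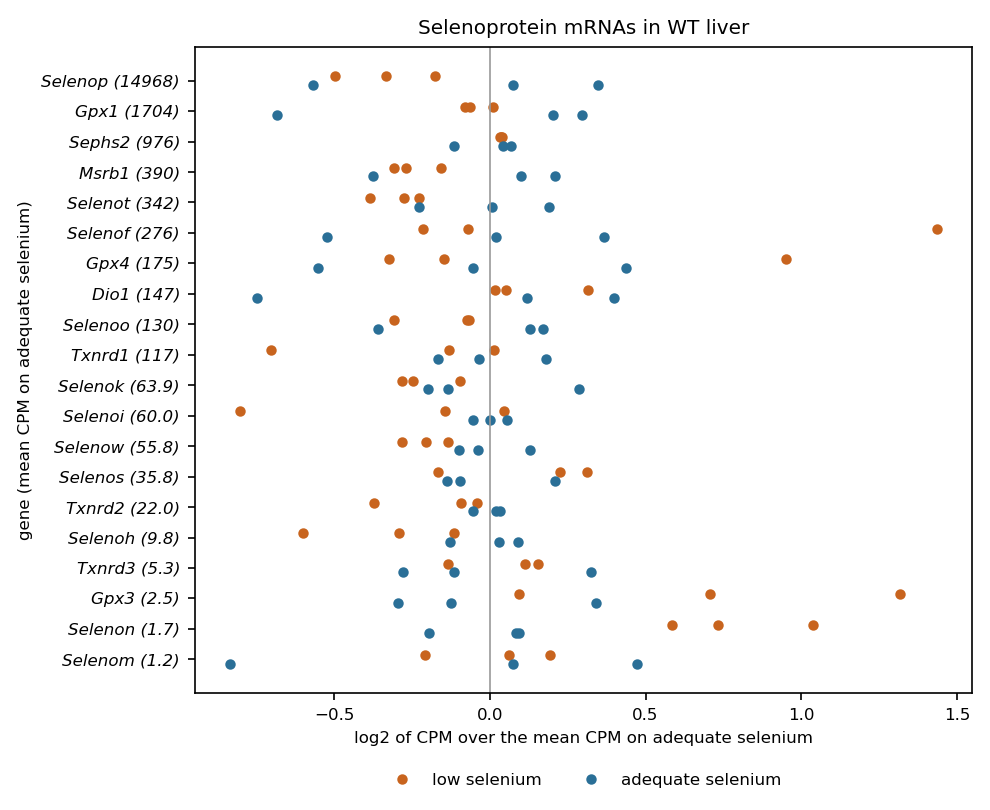
Log2 ratio of the CPM of 20 selenoprotein genes in each WT library to the mean on adequate selenium, ordered by that mean. Orange points are low and blue points adequate selenium libraries. For 17 of the 20 genes the points of both diets overlap, Selenon lies to the right and Selenot and Selenow lie just to the left. Over all tested genes, 5.21% were higher and 6.48% lower without overlap.

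Of the selenoproteins regarded as sensitive to selenium, Selenow was at 50.8, 48.4 and 45.8 CPM in WT LS and 52.1, 54.3 and 61.0 CPM in WT MS, which do not overlap but lie close together (log2 fold change -0.21 ± 0.26 SE). Selenoh, a nuclear redox protein, was at 7.97, 6.44 and 9.0 CPM against 8.93, 10.4 and 9.95 CPM, which overlap (-0.33 ± 0.33 SE). Selenot, a thioredoxin-like protein of the endoplasmic reticulum, was at 283, 292 and 262 CPM against 292, 344 and 390.3 CPM (-0.29 ± 0.33 SE), with the highest low-selenium library just below the lowest adequate one. Gpx4, which reduces lipid hydroperoxides in membranes, was at 338, 158 and 139.8 CPM against 119, 169 and 237 CPM, where S1 held the highest value. Txnrd1, the cytosolic thioredoxin reductase, was at 71.7, 118 and 107 CPM against 132, 114 and 104 CPM. Gpx4 and Txnrd1 thus overlapped between the diets. Selenon, a calcium-related protein of the endoplasmic reticulum, was the only selenoprotein that was higher without overlap, at 3.41, 2.76 and 2.49 CPM against 1.76, 1.45 and 1.78 CPM, on few counts (0.78 ± 0.51 SE). Selenof, a partner of glycoprotein folding, was at 747, 263 and 238 CPM against 192, 280.4 and 356 CPM, and its log2 fold change of 0.59 turned to -0.14 without S1, as that of Gpx4 did (0.28 to -0.23). The SE of the selenoproteins on the log2 scale ran from 0.23 (Txnrd2) to 0.61 (Gpx3), so differences of this size were not detectable at this depth and replication. Dio1, Msrb1, Selenoi, Selenok, Selenom, Selenoo, Selenos, Txnrd3 and Sephs2 had overlapping groups, with log2 fold changes from -0.25 (Selenoi) to 0.14 (Selenos).

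Among 22 tested genes for selenium supply and selenocysteine synthesis, 7 were higher and 15 lower, with a median of -0.17 (-0.09 without S1 and also without S4). Selenbp2 was the only member with an unadjusted p under 0.05, beside 1.14% of all genes higher and 1.15% lower. Scly itself, which releases selenide from selenocysteine, was at 83.1, 77.5 and 73.1 CPM in WT LS and 92.2, 105 and 88.3 CPM in WT MS, without overlap (log2 fold change -0.29 ± 0.17 SE). Lower values without overlap occurred in 5 of the 22 members, beside 6.48% of all genes, and the other 4 were Sepsecs, which completes selenocysteine on its transfer RNA (-0.44), and the methionine and transsulfuration genes Mat1a (-0.62), Gnmt (-0.33) and Cth (-0.23). For Sepsecs and Mat1a the lowest value was that of S1, and without it the differences were -0.22 and -0.38. Sephs2 makes the selenium donor selenophosphate and is itself a selenoprotein, and its log2 fold change was 0.04. Secisbp2 and Eefsec, which bring selenocysteine to the ribosome, differed by 0.16 and -0.10, and Pstk, the kinase of the transfer RNA, by -0.40 (0.47 SE). In Lrp1 and Lrp2, receptors of the low-density lipoprotein receptor family, the differences were 0.42 and 0.53 with SE of 0.51 and 0.58.

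Outside the selenoproteins, no redox gene listed here was called by edgeR, DESeq2 or limma-voom in the fits of all 12 libraries. Of 30 tested targets of NRF2, a transcription factor of the response to electrophilic stress, 8 were higher and 22 lower. Their median was -0.10, which was -0.02 without S1. Pgd, of the pentose phosphate pathway, was the single member with an unadjusted p under 0.05, beside 1.14% of all genes higher and 1.15% lower. It was at 17.5, 38.3 and 24.5 CPM in WT LS and 80.6, 38.0 and 49.4 CPM in WT MS, which overlap. Nqo1 was at 2.28 to 4.85 against 5.66 to 7.26 CPM, without overlap. Of 26 genes for glutathione, peroxiredoxins and antioxidant enzymes, 10 were higher and 16 lower, with a median of -0.07, which ran from -0.02 without S6 to -0.14 without S3. Prdx3, the mitochondrial peroxiredoxin, was at 79.5, 129 and 135 CPM against 140.1, 159 and 157 CPM, and S1 was again the lowest.

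In the main edgeR fit most genes of sterol and fatty acid synthesis lay lower on low selenium. This weakened without S1 or S4 and in limma-voom, and was stronger without S3 or S5. All 25 tested genes of cholesterol synthesis and uptake had a log2 fold change below 0, with a median of -0.40, beside 48.2% of all genes below 0. Only 1 member, Hmgcs1, had an unadjusted p under 0.05, beside 1.15% of all genes lower. Only 1 other, Ebp, had groups that do not overlap, beside 6.48% of all genes lower without overlap. Hmgcs1, which makes the precursor of mevalonate, was at 70.3, 101 and 159 CPM in WT LS and 266, 136 and 256 CPM in WT MS, and S3 was above S5 (-0.99 ± 0.34 SE). Fdps was at 74.7, 81.8 and 97.1 CPM against 238, 82.8 and 123 CPM (-0.81), which overlap, and its difference was -0.28 without S4. Acat2 was at 31.4, 85.2 and 89.5 CPM against 140.0, 85.0 and 121 CPM (-0.74). Without S1, 22 of 25 genes were below 0 with a median of -0.17, and without S4, 20 genes with a median of -0.16. All 25 genes stayed below 0 without S3 (median -0.60) and without S5 (median -0.56). In limma-voom, which gave S1 and S4 low weights, the median was -0.04 and 14 genes were below 0.

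**Figure D3:**
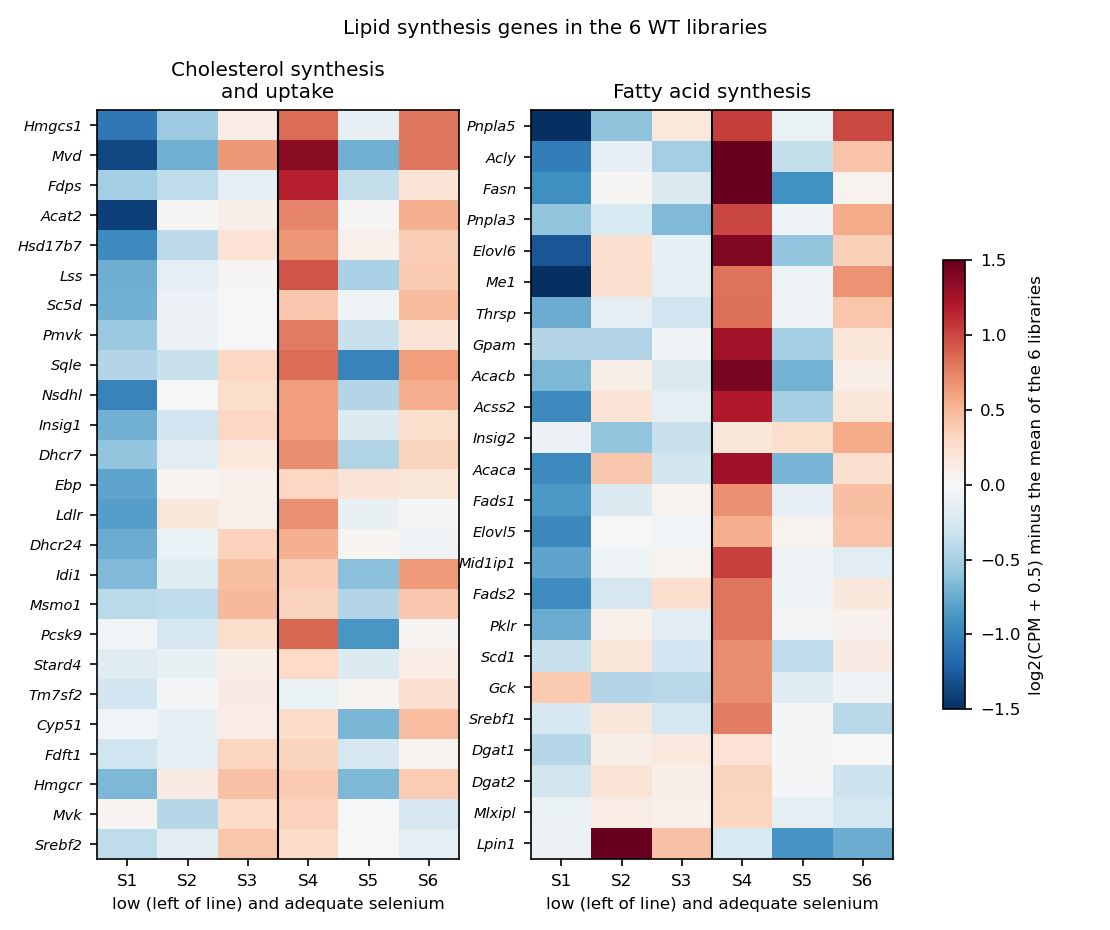
Levels of 25 genes of cholesterol synthesis and uptake and of 24 genes of fatty acid synthesis in the 6 WT libraries, as log2(CPM + 0.5) minus the mean of the 6 libraries, with red above and blue below that mean. Rows are ordered by the diet difference. S1 is blue and S4 red for most genes, and S5, on adequate selenium, is blue for many of them.

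For fatty acid synthesis, 22 of 24 tested genes were below 0 with a median of -0.66. Without S4, 17 genes were below 0 with a median of -0.15, and without S1 the median was -0.43. The median was -0.76 without S3 and -0.81 without S5. In limma-voom 15 genes were below 0 with a median of -0.17. Fasn, the fatty acid synthase, was at 435, 833 and 707 CPM in WT LS and 3190.1, 436 and 853 CPM in WT MS. Acly, which supplies acetyl-CoA, was at 245, 461 and 351 CPM against 1512, 390.4 and 676 CPM (-1.29 ± 0.49 SE), or -0.60 without S4. The high value of S4 was thus several times that of S5, and outside S4 the diets overlapped for both genes. Insig2, an anchor that retains the sterol sensor in the endoplasmic reticulum, was lower without overlap at 156, 110.3 and 132 CPM against 189, 199 and 245 CPM (-0.67 ± 0.37 SE). Lpin1, a phosphatidic acid phosphatase and coactivator induced in fasting, was higher on low selenium at 89.2, 269.6 and 129 CPM against 81.3, 51.4 and 56.6 CPM (1.37 ± 0.68 SE), also without overlap.

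The bases before the start sites of Hmgcs1 and Fasn are shown because the sterol and lipogenic genes are known as targets of SREBP factors, which act together with NF-Y. Capitals mark CCAAT, the NF-Y box, which reads ATTGG on the other strand, and in Hmgcs1 also TCACNCCAC, the sterol regulatory element. In Fasn a forward and a reverse CCAAT overlap and appear as 1 run of capitals. The stretches are chr13:119690151-119690350 (plus strand) for Hmgcs1 and chr11:120824548-120824697 (minus strand) for Fasn, GRCm38.p6.
Hmgcs1: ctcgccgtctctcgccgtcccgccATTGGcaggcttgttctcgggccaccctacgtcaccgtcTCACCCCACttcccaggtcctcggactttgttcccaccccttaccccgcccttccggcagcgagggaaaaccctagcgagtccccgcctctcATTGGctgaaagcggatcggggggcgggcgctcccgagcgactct
Fasn: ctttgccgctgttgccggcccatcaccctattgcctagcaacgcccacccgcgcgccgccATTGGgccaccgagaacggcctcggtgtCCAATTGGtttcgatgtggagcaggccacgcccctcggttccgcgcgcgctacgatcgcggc
In the 250 bases before the start, on either strand, CCAAT occurred in 16 of the 17 cholesterol genes and 13 of the 19 fatty acid genes matched to RefSeq promoters, beside 37.5% of 27025 genes. The GC box GGGCGG was also frequent, in 16 of the 17 and 11 of the 19 genes, beside 35.4%. TCACNCCAC occurred in 1 gene of each list, Hmgcs1 and Mlxipl, beside 1.22%. CACGTG, the E-box shared by SREBP and ChREBP, occurred in 4 of 17 and 3 of 19 genes, beside 6.86%. The shares set beside these counts cover all genes with a RefSeq promoter, not only those tested in these livers. These matches describe the letters of the promoters and were not tested as sites.

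Target genes of PPARA, the receptor that drives fatty acid oxidation in fasting, were mostly lower. Of 33 tested, 5 were higher and 28 lower with a median of -0.27, which was -0.19 without S1 and -0.36 without S4. Of these, 8 were lower and 1 higher without overlap, beside 6.48% and 5.21% of all genes, and 2 were lower and 1 higher at an unadjusted p under 0.05, beside 1.15% and 1.14%. Acot3, a peroxisomal acyl-CoA thioesterase, was at 3.87, 6.67 and 6.65 CPM in WT LS and 26.3, 28.6 and 8.64 CPM in WT MS (-1.86 ± 0.55 SE). Vnn1, a pantetheinase, was at 24.6, 18.1 and 30.9 CPM against 36.7, 49.5 and 53.2 CPM (-0.92 ± 0.39 SE). Neither overlapped, although S6 lay near the low group for Acot3. Cyp4a14, a fatty acid hydroxylase that is among the strongest PPARA targets in mice, was at 26.9, 2.76 and 9.14 CPM against 43.0, 78.4 and 18.8 CPM, which overlap. The member that was higher was Angptl4.

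Fasting and glucose genes were mixed. Of 27 tested, 10 were higher and 17 lower with a median of -0.09 (-0.18 without S3 and -0.14 without S2). Beside Slc25a25 and Pfkfb3 above, Got1, the cytosolic aspartate aminotransferase, was at 97.9, 260.3 and 200.01 CPM in WT LS and 551, 317 and 358 CPM in WT MS (-1.13 ± 0.34 SE). Pfkfb1, the main hepatic isoform of this enzyme, was at 12.1, 22.4 and 17.2 CPM against 35.5, 24.8 and 29.4 CPM (-0.78 ± 0.33 SE). Pfkfb1 and Pfkfb3 thus lay in opposite directions, each without overlap.

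Amino acid enzymes were lower in most cases. Of 34 tested genes for alanine, glutamate, the urea cycle and related steps, 29 were lower and 5 higher with a median of -0.22 (-0.35 without S2). Of these genes 9 were lower without overlap and 0 higher, beside 6.48% and 5.21% of all genes. Oat, ornithine aminotransferase, was at 308, 311 and 305 CPM in WT LS and 734, 422 and 413 CPM in WT MS (-0.77 ± 0.32 SE), or -0.44 without S4. Uroc1, of histidine breakdown, was at 193, 415 and 376 CPM against 488, 500.1 and 494 CPM (-0.59 ± 0.30 SE), or -0.32 without S1. Genes of periportal hepatocytes, many of which belong to the same pathways, had a median of -0.36 with 15 of 20 lower, and this median was -0.21 without S1 and -0.22 without S4. Pericentral genes had a median of -0.01 with 10 higher and 10 lower, which was 0.14 without S4. The difference between these lists was not tested.

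Of 34 genes for methionine, glycine and one-carbon metabolism, 15 were higher and 19 lower with a median of -0.12, which was -0.03 without S4 and -0.06 without S3 and also without S6. Without overlap 8 were lower and 1 higher, beside 6.48% and 5.21% of all genes. Bhmt, which remethylates homocysteine from betaine, was at 646, 841 and 794 CPM in WT LS and 1349, 1176 and 1607 CPM in WT MS (-0.86 ± 0.31 SE). Gldc and Amt, subunits of the glycine cleavage system, were at 49.9, 65.1 and 62.3 CPM against 104, 90.7 and 87.5 CPM, and at 13.2, 32.6 and 30.7 CPM against 38.1, 46.6 and 41.7 CPM. All 3 genes were lower without overlap, with S1 the lowest in each. Csad, the taurine-forming decarboxylase, was at 164, 62.5 and 100.003 CPM against 26.5, 66.9 and 62.4 CPM (1.06 ± 0.39 SE), which overlap.

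**Figure D4:**
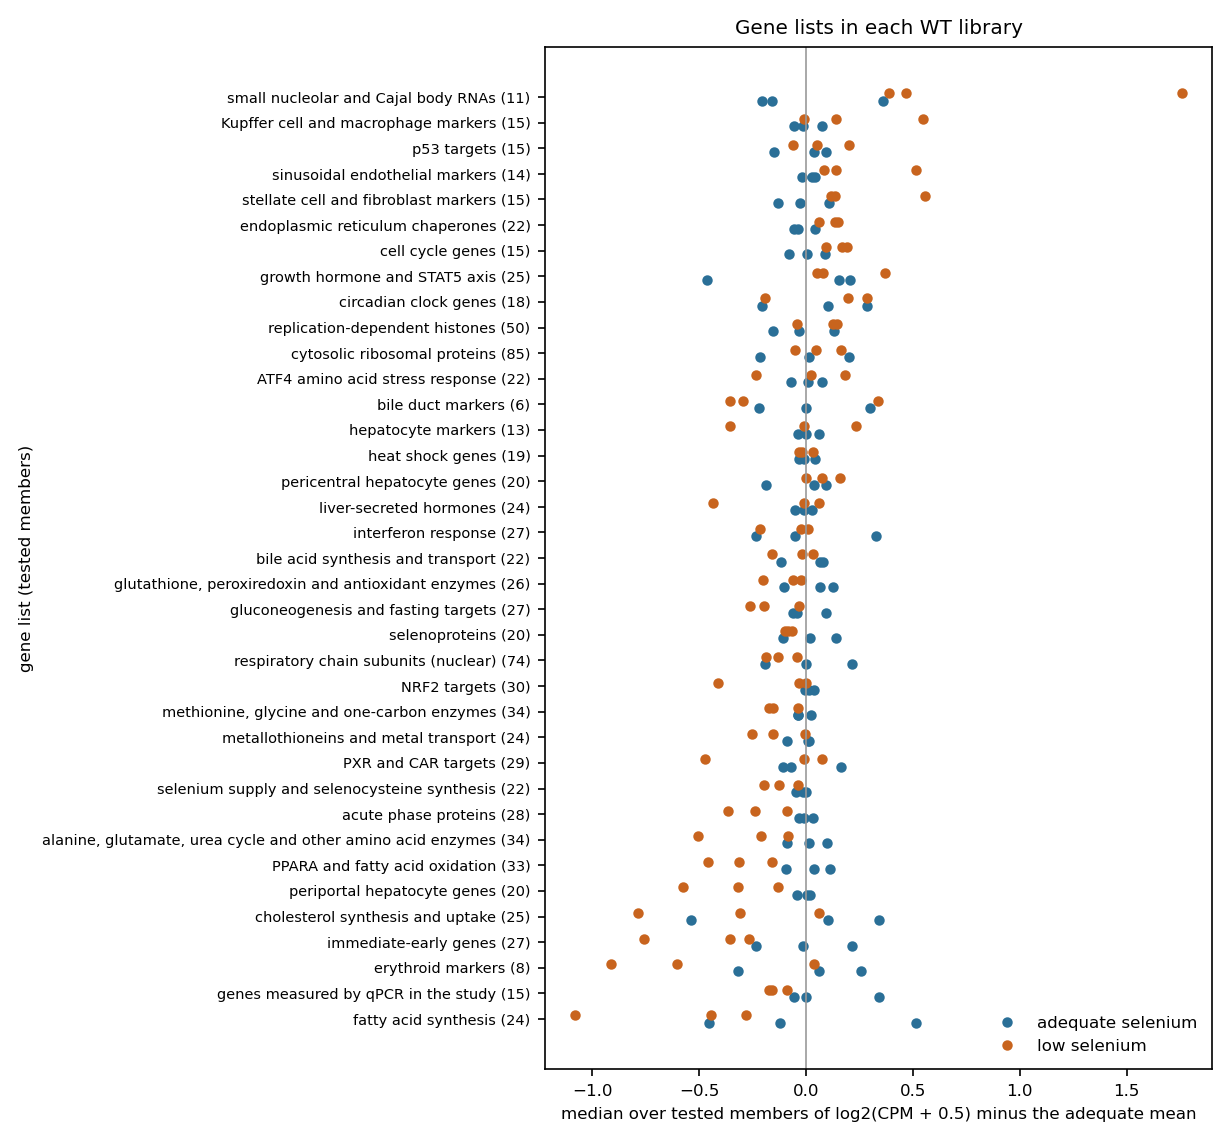
Median over the tested members of each gene list of log2(CPM + 0.5) minus the adequate mean, in each WT library (orange low, blue adequate selenium), with the number of tested members in parentheses. The libraries of both diets overlap for most lists, and for the small nucleolar RNAs and the endothelial markers 1 low-selenium library lies far from the other 2.

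Immediate-early genes, which answer growth factors and stress within minutes, were lower in 22 of 27 cases with a median of -0.45, and 6 were lower and 0 higher at an unadjusted p under 0.05, beside 1.15% and 1.14% of all genes. Dusp6, a phosphatase that limits ERK signalling, was at 54.4, 42 and 64.5 CPM in WT LS and 127, 72.9 and 90.5 CPM in WT MS (-0.85 ± 0.30 SE), without overlap. Gadd45g was at 12.7, 25.0 and 6.79 CPM against 16.2, 124 and 66.3 CPM, and Klf10 at 18.9, 18.6 and 23.3 CPM against 27.3, 56.7 and 25.6 CPM. In both, S5 held the highest value, and the median of the list was -0.27 without S5. Of 19 heat shock genes, 9 were higher and 10 lower with a median of -0.01. The inducible chaperone Hspa1b was at 6.15, 7.48 and 10.7 CPM against 4.40, 4.58 and 3.67 CPM and Hsph1 at 25.0, 22.9 and 23.3 CPM against 19.8, 16.5 and 17.2 CPM, both higher without overlap, while Hsp90ab1 was lower at 340.4, 567 and 605 CPM against 649, 645 and 694 CPM.

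Clock genes were higher in 11 of 18 cases, with a median of 0.10 that ran from 0.01 without S2 to 0.29 without S4. The limma-voom median was 0.28 with 12 genes above 0. An unadjusted p under 0.05 occurred in 0 of them, beside 1.14% of all genes higher and 1.15% lower. Per1 was the only one without overlap, beside 5.21% of all genes higher and 6.48% lower. It was at 20.5, 37.4 and 30.9 CPM in WT LS and 16.2, 19.2 and 17.6 CPM in WT MS. Noct, a rhythmic phosphatase of NADPH that limma-voom called, was at 29.8, 48.8 and 30.9 CPM against 22, 14.4 and 19.9 CPM (0.96 ± 0.35 SE). Of 22 endoplasmic reticulum chaperones, 16 were higher with a median of 0.20, which was 0.06 without S1. Hspa5, the chaperone BiP, was at 1370.1, 700.3 and 598 CPM against 525, 441 and 679 CPM, with the highest value in S1. Targets of ATF4, the factor of the amino acid response, were split into 12 higher and 10 lower, and the sign of their median (0.03) turned without S2, S3 or S5 (-0.10, -0.10 and -0.06). Slc7a5, a transporter of large neutral amino acids, was at 2.28, 4.72 and 3.19 CPM against 1.26, 1.68 and 0.947 CPM (1.41 ± 0.45 SE), and Cebpb, a leucine zipper factor, at 187, 103 and 109 CPM against 68.8, 67.6 and 61.8 CPM (1.01 ± 0.45 SE). Vldlr, a lipoprotein receptor, was at 1.14, 1.84 and 1.11 CPM against 8.55, 3.13 and 2.72 CPM (-1.77 ± 0.52 SE). None of these 3 overlapped.

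Acute phase proteins were lower in 21 of 28 cases with a median of -0.20, or -0.32 without S2. Without overlap 9 were lower and 0 higher, beside 6.48% and 5.21% of all genes. Lbp, which binds bacterial lipopolysaccharide, was at 31.9, 39.2 and 42 CPM in WT LS and 52.3, 57.9 and 46.9 CPM in WT MS. The iron hormone hepcidin, encoded by Hamp, was at 577, 746 and 568 CPM against 1123, 953 and 800.2 CPM (-0.60 ± 0.39 SE), and its paralog Hamp2 at 68.8, 84.2 and 69.3 CPM against 353, 103 and 169.9 CPM (-1.49 ± 0.55 SE). Hamp and Hamp2 have similar sequences, so the division of reads between them is uncertain, but both were lower without overlap. Metallothionein and metal transport genes were lower in 18 of 24 cases with a median of -0.13, or -0.05 without S1, -0.24 without S2 and -0.21 without S4. Mt1 was at 5.46, 6.79 and 4.16 CPM against 14.5, 10.9 and 8.64 CPM, without overlap.

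Genes that depend on growth hormone and STAT5 were higher without overlap in 8 and lower in 2 of 25 cases, beside 5.21% and 6.48% of all genes. Their median was 0.12, from 0.07 without S1 to 0.28 without S5, but in limma-voom it was -0.02 with 13 genes below 0. S4 had the lowest values of several male-biased genes. Ugt2b38, a glucuronosyltransferase, was at 119, 34.5 and 39.8 CPM in WT LS and 8.68, 12.1 and 23.6 CPM in WT MS (2.12 ± 0.77 SE). Cyp7b1, a male-biased oxysterol hydroxylase, was at 443, 232 and 292 CPM against 66.0, 159 and 149 CPM (1.37 ± 0.64 SE). Cyp2b9 and Cyp2a4, female-biased in mouse liver, had their highest WT values in S4, 20.6 and 19.4 CPM, against at most 0.138 and 1.52 CPM in WT LS. S5 and S6 held 2.90 and 0.237 CPM of Cyp2b9 and 2.46 and 1.78 CPM of Cyp2a4, so the size of the difference rested on S4. The summed level of the list was 18910 CPM in S4 and 39030 to 67140 CPM in the other WT libraries. Targets of PXR and CAR, the receptors of foreign compounds, were split into 12 higher and 17 lower with a median of -0.13, which was 0.04 without S1 and 0.03 without S4. Of 22 genes for bile acid synthesis and transport, 10 were higher. Cyp7a1, the rate-limiting enzyme of bile acid synthesis, was at 166, 102 and 235 CPM against 76.4, 74.6 and 118 CPM (0.90 ± 0.33 SE), which overlap.

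Among 24 tested liver-secreted hormones, 12 were higher and 12 lower with a median of -0.03, which was 0.08 without S6 and -0.17 without S3 and also without S5. At an unadjusted p under 0.05, 4 were higher and 1 lower, beside 1.14% and 1.15% of all genes. The higher ones were Tsku, Angptl4, Enho and Igfbp2, an IGF-binding protein at 754, 431 and 459.7 CPM in WT LS and 205, 338 and 365 CPM in WT MS. Fst, which encodes the activin antagonist follistatin, was lower at 6.37, 7.48 and 5.96 CPM against 16.9, 7.6 and 15.6 CPM. Igfbp2 did not overlap, and for Fst the highest low-selenium value and the lowest adequate value were nearly equal.

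The 15 genes that the study followed by quantitative PCR were chosen on these libraries, and their counts are therefore a description. Of them, 6 were higher and 9 lower on low selenium in WT, with a median of -0.46 that was -0.04 without S4 and -0.19 without S3. The diets separated for Selenbp2, Arl4d and Eif4ebp3, which were higher, and for Slc25a25, Acot3, Pparg and Mt1, which were lower, beside 5.21% and 6.48% of all genes. The paper's quantitative PCR means of WT males lay in the same direction for Arl4d, Acot3 and Pparg. They lay in the opposite direction for Selenbp2, Eif4ebp3, Slc25a25 and Mt1. For Acot3, Pparg, Selenbp2 and Slc25a25 these means differed by less than their printed errors. The paper reported a selenium effect over both genotypes for none of these genes, but for Abcb1a, Abcc3, Inhbe and Ppl. For Arl4d and Mt1 it reported an interaction of genotype and selenium. The directions of these means are therefore a description only. Pparg, a nuclear receptor of lipid storage, was at 1.37, 1.96 and 2.91 CPM in WT LS and 8.43, 4.02 and 5.33 CPM in WT MS (-1.47 ± 0.57 SE). Arl4d, a small GTPase, was at 47.4, 44.1 and 44.0 CPM against 35.6, 15.1 and 35.8 CPM, and Eif4ebp3, a repressor of translation initiation, at 44.6, 38.2 and 35.6 CPM against 15.9, 34.9 and 25.6 CPM. Abcb1a, Abcc3, Angptl6, Ces1g, Inhbe, Lcn2, Mt2 and Ppl overlapped, with log2 fold changes from -0.80 (Abcb1a) to 0.48 (Angptl6).

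Markers of other liver cells were slightly higher on low selenium, mainly through S1. In bulk tissue, more cells of a type and more RNA per cell cannot be told apart. Of the sinusoidal endothelial markers, 13 of 14 were higher with a median of 0.25 (0.11 without S1), of the stellate cell and fibroblast markers 13 of 15 with a median of 0.21 (0.14 without S1), and of the Kupffer cell and macrophage markers 12 of 15 with a median of 0.28 (0.10 without S1). The summed macrophage markers were 842 CPM in S1, 602 and 641 CPM in the other low-selenium libraries and 563 to 693 CPM in WT MS. Erythroid markers were lower in 7 of 8 cases with a median of -0.45 (-0.25 without S2 and -0.68 without S3), and their sum overlapped between the diets (503 to 910.0 against 756 to 1085 CPM). Of the 13 hepatocyte markers, 6 were higher and 7 lower. Bile duct, T and NK cell, B cell, neutrophil, adipocyte and acinar lists summed to at most 52.8 CPM in any WT library. The 11 tested small nucleolar and Cajal body RNAs were all higher, with a median of 0.82 (0.43 without S1), and their whole list summed to 308 CPM in S1 and to 72.2 to 121 CPM in the others. Whether this composition moved the genes above was not tested.

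The same diet contrast in Scly KO livers shares no library with the WT contrast. There edgeR called 0 genes, while 21.9% of genes had p under 0.05 before adjustment. In this contrast 129 genes passed in DESeq2 and 5988 in limma-voom. Among the Scly KO libraries, S12 correlated with the WT libraries at only 0.850 to 0.900, and the Rn45s share was 17.0% for S7 and 19.9% for S8. Across 12009 genes the diet differences of WT and Scly KO correlated weakly (Pearson r = 0.14, Spearman rho = 0.206), where genes are not independent replicates. Of the 275 genes at an unadjusted p under 0.05 in WT, 170 (61.8%) had the same sign in Scly KO, beside 58.1% of all genes. The interaction of genotype and diet was called for 0 genes by edgeR and 0 by DESeq2, while 6.73% of genes had p under 0.05 before adjustment, and for 2081 genes by limma-voom.

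**Figure D5:**
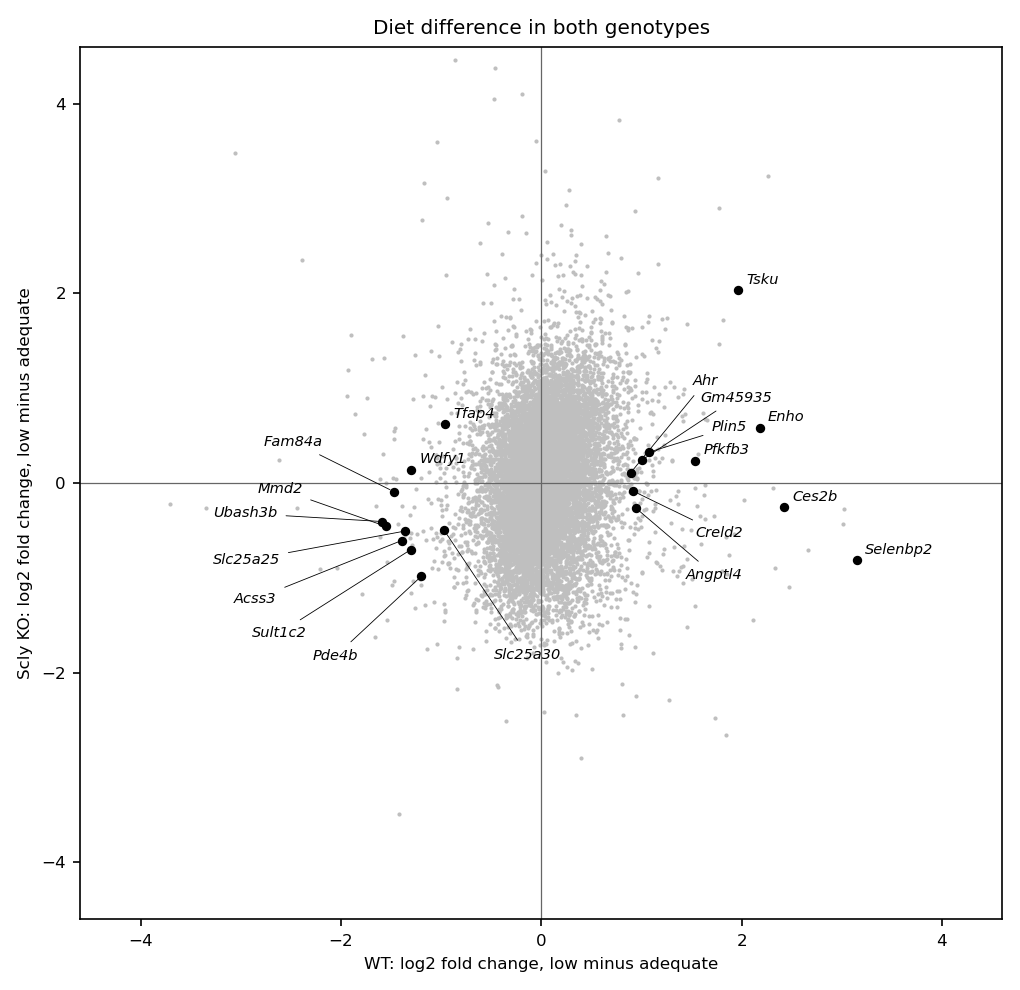
Log2 fold change, low minus adequate selenium, of 12009 genes in WT (horizontal axis) and in Scly KO (vertical axis). Grey points are genes, black points are the 20 leading genes of the WT comparison, and 3 genes lie outside the axes. Tsku is at 1.97 and 2.03, while Selenbp2 is at 3.15 and -0.82.

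Among the 20 leading genes of the WT comparison, Tsku had the smallest interaction of genotype and diet. In Scly KO it was at 60.5, 90.6 and 66.1 CPM on low and 16.7, 14.1 and 22 CPM on adequate selenium, again without overlap, and the log2 fold change was 2.03 beside 1.97 in WT (interaction -0.07, adjusted p = 0.957, edgeR). Pde4b was also lower without overlap in Scly KO, with 19.5, 17.4 and 20.04 CPM against 39.5, 46.9 and 26.8 CPM (-0.99 beside -1.20). Tsku was among 54 genes higher, and Pde4b among 67 lower, without overlap in both genotypes, of 12009 tested. In WT alone 5.21% of tested genes were higher and 6.48% lower without overlap. The shares in Scly KO alone were not counted, so these counts do not show that the genotypes share a diet difference. Selenbp2 was at 10.02 to 16.5 CPM on low and 11.7 to 38.0 CPM on adequate selenium in Scly KO, with a log2 fold change of -0.82 beside 3.15 (interaction 3.96, adjusted p = 0.65, edgeR). Angptl4 was at 72.3 to 107 CPM against 96.5 to 119 CPM and Wdfy1 at 36.9 to 38.1 CPM against 27.5 to 40.2 CPM in Scly KO, both overlapping. The test of the difference between the genotypes did not pass the threshold for any of these genes in edgeR, so a difference between genotypes was not shown for them.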

How the data were processed

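RNA-Seq libraries were made from poly(A) RNA of mouse liver with a directional kit. According to the study's methods and the submitters' processing notes, FastQC served for quality control and cutadapt for trimming, STAR mapped the reads to mm10, Partek assigned them to genes by expectation maximization, and DESeq2 was used for testing. The sources used here give no versions. The authors deposited expected counts per gene, unscaled, of which 91.5% were whole numbers within 0.001. A deposited table of the authors' own comparisons (fold changes and p-values) was not used. No value column was left without a group, and no row lacked a gene name. Symbols stored as dates (26 genes) were named from RefSeq positions where possible (17 genes).

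Counts were rounded, filterByExpr at its minimum count of 10 left 12009 of 24795 genes, library sizes were scaled by TMM, and CPM are per 1000000 scaled counts. A quasi-likelihood model with 1 coefficient per group was fitted to all 12 libraries in edgeR 4.0.16 (R 4.3.3), so that the 4 groups share the estimate of the spread, p-values were adjusted by Benjamini-Hochberg, and 0.05 was the threshold. Total counts per WT library were 4797067 to 9291902. No 2 WT libraries had equal counts in more than 304 of the tested genes, and none were merged. Alternatives were DESeq2 1.42.0, limma-voom (limma 3.58.1) with quality weights, RLE and upper-quartile factors, no filter, at least 10 counts in every library, unrounded counts, only the 6 WT or the 6 Scly KO libraries, each library left out, without S7, S8 and S12, without Rn45s, and a length and GC trend removed (splines with 4 degrees of freedom, 98.8% of genes with both values). The 6-library fits in DESeq2 and limma-voom were chosen after seeing the data. DESeq2 gave no adjusted p for 57 genes, and for 2897 with 6 libraries.

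In counts simulated for this comparison over 11889 genes, 50 genes were changed by each of several folds. Of those changed 1.5-fold edgeR found 3, of those changed 2-fold 11, of those changed 4-fold 45 and of those changed 8-fold 49. Of its 118 calls, 10 were false. These counts were drawn with the same mean in all groups, apart from the changes, and a spread set by the mean level only. No library was made an outlier as S1 and S12 are, and genes at very low levels were left unchanged. The simulation therefore does not give the share of real differences that edgeR could find here. In the real libraries edgeR did not call Tsku, at a log2 fold change of 1.97. Named were up to 10 genes in each direction with the smallest p among non-overlapping genes, all tested selenoprotein and selenium supply genes, up to 10 per direction called by each tool, from each list up to 4 members by p, the genes of the quantitative PCR and Tsku, and for any other gene the choice followed a look at its values. The comparison, the gene lists and these rules were chosen with earlier results of these data known, and no set test was run. Counting error is the only error that depth covers.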

Additional observations from a re-analysis of the deposited data

Results flagged for a closer look

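In 4 of the 209 genes named by the rules, the diet groups were separated in opposite directions in WT and Scly KO, with no overlap in either. Some of the 209 were named because their WT groups did not overlap. The share of all tested genes with such opposite separation was not counted, so these 4 are a description only. The interaction, WT minus Scly KO on the log2 scale, was -1.58 for the transcription factor gene Tfap4, 0.94 for the kinase gene Ip6k2, -1.21 for the acute phase gene Lbp and 4.21 for the small nucleolar RNA Snora7a. In edgeR each of these interactions had an adjusted p of 0.65, with Benjamini-Hochberg adjustment, and did not pass the threshold. Snora7a was at 5.92, 1.27 and 1.66 CPM in WT LS and 0.181 to 0.289 CPM in KO LS, and it was highest in S1 and next highest in S8, where the ribosomal RNA precursor Rn45s took 9.23% and 19.9% of the counts. Whether these shares bear on it was not tested.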

How the results depend on the processing

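The number of genes called for low against adequate selenium in WT was 0 in the main edgeR fit, 2 with DESeq2, 18 with limma-voom and quality weights, 23 with limma-voom on the 6 WT libraries and 26 with DESeq2 on them (the last pair chosen after seeing the data), and 0 to 1 when each WT library was left out, the 1 being Wdfy1 without S1. In the other alternatives it was 0. In Scly KO the count was 129 with DESeq2 and 5988 with limma-voom, and 0 to 3979 when single libraries were left out, with 3979 without S9 and 4 without S11. For the interaction it was 2081 with limma-voom and 0 to 3 when single libraries were left out, the 3 without S11. The causes were not tested. No paired analysis was possible because the library columns carry numbers that do not match the replicate numbers of the labels. Of 39 single genes followed, all kept their direction in the alternatives run, in 725 pairs of gene and setting, of which 43 passed the threshold that the main fit did not pass. List medians moved by more than 1 SD between libraries in 47 of 703 pairs of list and setting. Depth was lowest in S1, and genes under about 2 CPM rest on few counts.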
